A study of Sus scrofa with 10 samples.

Results

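The neuropeptide genes SST, NPY, CORT, CCK and VIP were followed through 10 libraries of the pig medial entorhinal cortex (MEC), together with the cells that held at least 3 UMIs (counted transcript molecules) of any of them. These were 5 of the 22452 genes in the count tables, and 1617 of the 28229 cells. The genes were chosen as neuropeptides of cortical interneurons and not by their counts, and the cells were chosen by the count of the peptide gene alone. The samples were fetal brains of crossbred pigs (Danish Landrace and Yorkshire sows, Duroc semen) taken on embryonic day 50 (E50), 60 (E60) or 70 (E70), and brains labelled as adult, with no treatment and no genetic change. For the adult brains the study speaks of sows in its methods and of a postnatal day elsewhere, so their age is uncertain. Whole cells, freed from the tissue with papain, gave 1 library at E50 (E50_1, 3 pooled brains), 3 at E60 (E60_1 and E60_2 with 1 brain each, E60_3 with 2), 3 at E70 (E70_1 with 2 brains, E70_2 and E70_3 with 1 each) and 1 from the adult brain (Adult_1, 1 brain). Nuclei of snap-frozen tissue, sorted on the DNA stain 7-AAD, gave 1 library at E70 (E70_nc) and 1 from the adult brain (Adult_nc), each from 1 brain. The numbers of brains are those of the labels, and the study's list of libraries gives other numbers for E70_1 and E70_3. Cells of a pool cannot be assigned to a brain, and replicate libraries existed for whole cells of E60 and of E70 alone.

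The depth of a cell had a library median between 690 (Adult_nc) and 9403 UMIs (E70_2), and the total per library ran from 2336865 to 55755512 UMIs. Of the 27777 different cell barcodes, 449 occurred in at least 2 libraries, and no pair of libraries shared more than 57. The label MEC was checked against genes of the tissue. EMX1, a transcription factor of the cortical primordium, was at 40.6 CPM (UMIs of the gene per 1000000 UMIs) in E50_1 and at 8.39 to 17.2 CPM in E60_3 and the 3 E70 whole cell libraries, but at 0.482 in E60_1 and 0.511 in E60_2. NEUROD6, of cortical excitatory neurons, was at 2.91 and 0.275 CPM in E60_1 and E60_2 and at 22.3 to 265 CPM in the other 5 fetal whole cell libraries. The summed level of the 4 DLX genes, which mark forebrain GABAergic neurons, was 0.207 and 0.236 CPM in E60_1 and E60_2 and 3.89 CPM in E50_1, against 29.6 to 48.8 CPM in the other 4. EN2, a midbrain and hindbrain gene, was at 37.4 CPM in E60_1, 14 CPM in E60_2 and 24.1 CPM in E50_1, and at 0.287 to 0.735 CPM in the other 4. EN2 stood for some but not all genes of these regions. TFAP2B was likewise at 30.2, 5.67 and 7.94 CPM in E50_1, E60_1 and E60_2, and at 0 to 1.83 CPM in the other 4. The summed level of the 37 genes of midbrain, hindbrain and diencephalon was lowest in E60_1 (757 CPM), at 1234 CPM in E60_2, and highest in E70_1 (1591) and E70_2 (1447), where GATA3 was at 32.2 and 37.7 CPM and PAX7 at 30.2 and 27.9 CPM, against 7.71 and 3.74 CPM in E60_1. OTX2 was at 36.4 CPM in E70_1, 23.3 in E60_2 and 0 in E70_2. MEIS2 alone made up much of the summed level. It was at 910 CPM in the cells of E60_3 without a CORT UMI and 660 CPM in those of E70_3. The sums over all cells of these libraries were 1365 and 1056 CPM. The summed level is therefore not read as a measure of midbrain or hindbrain content. The defining markers of cortex were thus near 0 in E60_1 and E60_2, while E50_1, E70_1 and E70_2 held cortical genes together with some midbrain genes. For the comparisons that rest on E60_1 and E60_2, the number of called genes is also given without them.

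Neuropeptides are cut from larger precursors inside secretory granules, released from neurons along with GABA or glutamate, and sensed by G protein-coupled receptors on other cells. In the mature cortex somatostatin (SST) marks interneurons of the medial ganglionic eminence that inhibit dendrites, and many of them also make neuropeptide Y (NPY) or cortistatin (CORT), a relative of somatostatin that binds the same receptors. Vasoactive intestinal peptide (VIP) marks interneurons of the caudal ganglionic eminence that mostly inhibit other interneurons. Cholecystokinin (CCK) is made by a class of basket cells, by many excitatory cortical neurons and by dopamine neurons of the ventral midbrain.

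By the RefSeq annotation of Sscrofa11.1, SST lies at chr13:125337560-125338742 on the minus strand with 2 exons, CORT at chr6:70716630-70717980 on the plus strand with 2 exons, NPY at chr18:47985796-47993726 on the minus strand with 4 exons, CCK at chr13:25940674-25945879 on the minus strand with 3 exons, and VIP at chr1:13611786-13620250 on the minus strand with 7 exons. The precursors are encoded by 116 codons in SST, 108 in CORT, 97 in NPY, 114 in CCK and 167 in VIP. The ends of the SST and CORT coding sequences, which encode the released peptides, are shown because the kinship of the pair bears on whether their counts can be told apart. Capitals mark the bases that are identical when the ends are aligned in frame, at chr13:125337560-125337604 on the minus strand for SST and chr6:70717936-70717980 on the plus strand for CORT.

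SST: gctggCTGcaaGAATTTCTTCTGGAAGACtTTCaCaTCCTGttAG

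CORT: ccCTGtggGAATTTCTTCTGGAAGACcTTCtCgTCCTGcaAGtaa

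Of the 42 aligned bases 32 were identical (76.2%), and the longest run of bases shared by the SST and CORT transcripts of RefSeq was 18. SST transcription is known to respond to cyclic AMP, so the letters of the cyclic AMP response element, TGACGTCA, were searched on both strands in the 250 bases before each gene start. They were found before SST alone of the 5 genes, 156 bases upstream of the start of the RefSeq model, which for SST and CORT is the start of the coding sequence. The match (capitals) at chr13:125338880-125338909 on the minus strand reads as follows, and 332 of 19559 genes (1.7%) held the motif in the same window.

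SST upstream: gcctcctagtcTGACGTCAgagagagagtt

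SST gave the most UMIs of the 5 genes (15983), then NPY (10151), CCK (5958), VIP (720) and CORT (656). At least 3 UMIs were counted in 493 cells for SST, 727 for NPY, 398 for CCK, 82 for CORT and 29 for VIP, and these cells are called SST cells, NPY cells and so on below. SST was concentrated in few cells, since SST cells held 91.3% of all SST UMIs, with a median of 12 and a maximum of 584 UMIs per cell. NPY cells held 81.3% of the NPY UMIs (median 5, maximum 355), VIP cells 83.2% (median 5, maximum 245), CCK cells 61.4% (median 4, maximum 121) and CORT cells 58.2% (median 4, maximum 20). Just below and at the threshold, 191 and 73 cells held exactly 2 and exactly 3 UMIs of SST, 339 and 163 of NPY, 54 and 30 of CORT, 380 and 136 of CCK, and 13 and 11 of VIP.

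**Figure D1:**
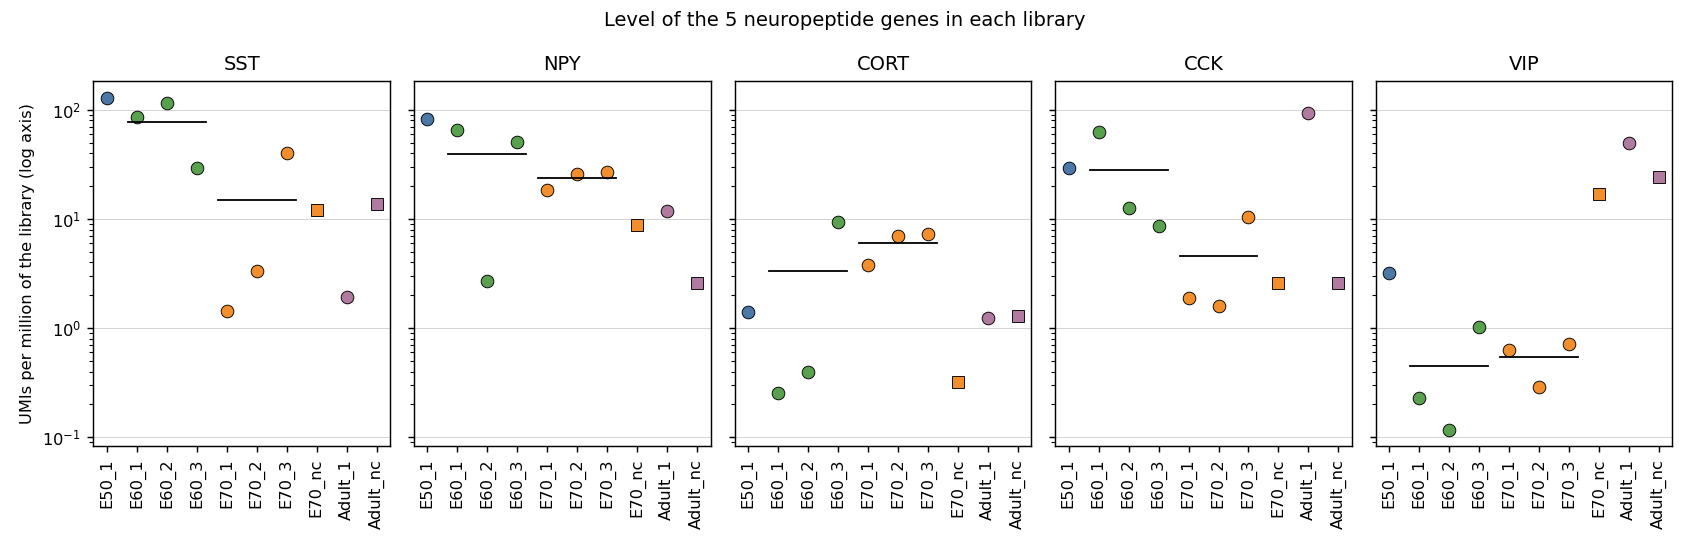
Level of each neuropeptide gene in each of the 10 libraries, in CPM over all cells, on a log axis. Circles are whole cell libraries, squares are nuclei and horizontal lines are the means of the 3 E60 and of the 3 E70 whole cell libraries. SST spans 1.43 to 130 CPM and VIP 0.118 to 50.1 CPM.

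The level of SST over all cells was 130 CPM in E50_1, 86.1, 115 and 29.2 CPM in E60_1, E60_2 and E60_3, 1.43, 3.31 and 40.4 CPM in E70_1, E70_2 and E70_3, 12 CPM in E70_nc, 1.93 CPM in Adult_1 and 13.7 CPM in Adult_nc. It was highest in the 3 libraries with the most EN2, 90.9 times the lowest level, and within E70 it was over 10 times higher in E70_3 than in the others. A single cell carried much of the level in 2 libraries, with 524 UMIs or 62.7% of the SST UMIs of E60_3 and 584 UMIs or 51.9% of those of E70_3.

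NPY was at 82.8 CPM in E50_1, 65.4, 2.71 and 50.6 CPM in E60_1, E60_2 and E60_3, 18.5, 25.6 and 27.1 CPM in the E70 whole cell libraries, 8.74 CPM in E70_nc, 11.8 CPM in Adult_1 and 2.57 CPM in Adult_nc. The 3 E70 libraries lay close together, whereas the E60 libraries spread widely, and 1 cell with 60 UMIs held 69.8% of the NPY UMIs of Adult_1.

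CORT was at 1.4 CPM in E50_1, 0.252, 0.393 and 9.31 CPM in E60_1, E60_2 and E60_3, 3.8, 7.05 and 7.36 CPM in the E70 whole cell libraries, 0.324 CPM in E70_nc, 1.24 CPM in Adult_1 and 1.28 CPM in Adult_nc. The 4 libraries with the most CORT were E60_3 and the E70 whole cells, those with the highest DLX levels, and of these only E60_3 and E70_3 also held much SST. Per 100 SST UMIs there were 0.293 CORT UMIs in E60_1, 0.341 in E60_2 and 1.08 in E50_1, against 31.8 in E60_3 and 18.2 in E70_3.

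CCK was highest in Adult_1, at 93.6 CPM, followed by E60_1 (63.3) and E50_1 (29.1). It was at 12.7 CPM in E60_2, 8.64 in E60_3, 1.9, 1.58 and 10.4 in E70_1, E70_2 and E70_3, and 2.59 and 2.57 in the nuclei of E70 and of the adult. VIP was at 50.1 CPM in Adult_1, 24.4 in Adult_nc, 16.8 in E70_nc and 3.21 in E50_1, and between 0.118 and 1.01 CPM in the 6 whole cell libraries of E60 and E70. The 3 highest VIP levels came from the 2 adult libraries and the E70 nuclei, but 1 cell with 245 UMIs held 67.3% of the VIP UMIs of Adult_1, and 1 cell with 88 UMIs 49.2% of those of E50_1. Since E50, the adult brain and the nuclei had 1 library each, these differences have no replicate check.

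As shares of cells, SST cells made up 2.92% of E50_1 (161 cells, exact 95% confidence interval 2.5 to 3.4), 2.66% of E60_1 (217 cells), 2.3% of E60_2 (80 cells) and 0.593% of E60_3 (16 cells, 0.34 to 0.962). They made up 0.203%, 0.162% and 0.417% of E70_1, E70_2 and E70_3, with 1, 1 and 13 cells, 2 nuclei each of E70_nc and Adult_nc, and 0 of 737 cells of Adult_1, which allows up to 0.407% (3 cells) or, by the exact interval, 0.499%. These intervals and limits cover counting error only. NPY cells were 5.85% of E50_1 (322 cells), 2.22% of E60_1 (181), 0.201% of E60_2 (7), 5.64% of E60_3 (152), 2.23%, 2.59% and 1.15% of the E70 whole cells (11, 16 and 36), 0.271% of Adult_1 (2) and 0 of the nuclei. CORT cells came almost all from E60_3 (41 cells, 1.52%), E70_3 (24 cells, 0.769%) and E70_2 (8 cells, 1.3%), with 5 in E50_1, 3 in E70_1 and 1 in E60_2. CCK cells numbered 122 in E50_1 (2.22%), 189 in E60_1 (2.31%), 15 in E60_2, 17 in E60_3, 27 in E70_3 and 28 in Adult_1 (3.8%), and 0 in the other 4 libraries. VIP cells numbered 7 in E50_1, 5 in E60_3, 2 in E70_3, 5 in E70_nc, 3 in Adult_1 and 7 in Adult_nc.

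Peptide cells were often deeper than their library. The median depth of CCK cells was 24281 UMIs in E70_3 and 16378 in Adult_1, where all cells had a median of 6828 and 6893, and that of NPY cells in E60_3 was 13049.5 against 7968. By the median, SST cells were closer to their libraries, with 9891 against 8469 UMIs in E50_1 and 4482 against 4251 in E60_1. In E60_3, however, 2 of the 16 SST cells passed several gates, at depths of 58451 and 68150 UMIs. All 16 together held 277226 UMIs, and 1 of the 2 was the cell with 524 SST UMIs. These 2 cells weigh on every summed value of the SST cells of E60_3 below. Whether they were cells caught together was not tested. With every cell thinned to 2000 UMIs, the shares fell to 1.62%, 1.77% and 1.44% for SST in E50_1, E60_1 and E60_2 and to 0.148% and 0.192% in E60_3 and E70_3. Thinned NPY shares were 1.42% in E50_1, 1.16% in E60_1 and 0.631% in E60_3. Microglia, which should lack these genes, gave a background. Whether it came from free RNA or from cells caught together was not tested. In E60_1, 13 of 810 microglia held an SST UMI, and the 5 with at least 3 had a median of 9, at a median depth of 7039 UMIs. At least 3 UMIs of SST were found in 1 of 92 microglia of E50_1 (median depth 10404 UMIs), 5 of 810 of E60_1 (4305.5) and 2 of 249 of E60_2 (4915), and in 0 of 83 and 0 of 69 of E60_3 and E70_3. For NPY it was 1 of 92 in E50_1 and 4 of 810 in E60_1. For CCK it was 2 of 92 microglia of E50_1 (2.17%, against 2.22% of all cells) and 1 of 249 of E60_2 (0.402% against 0.431%). In E50_1 and E60_2 the share of CCK cells was thus close to that in microglia. In E60_1, E60_3, E70_3 and Adult_1, 0 microglia held at least 3 UMIs of CCK. At least 1 UMI of SST was found in 17.4% of microglia and 15.6% of all cells of E50_1, so single SST UMIs in that library were at the background, and only cells with at least 3 are described.

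To ask whether the peptides changed between the stages with replicates, the 3 E60 were compared with the 3 E70 whole cell libraries. SST averaged 76.9 ± 43.8 CPM at E60 and 15 ± 22 CPM at E70 (SD, n = 3), CCK 28.2 ± 30.5 and 4.62 ± 4.99, NPY 39.6 ± 32.8 and 23.7 ± 4.57, CORT 3.32 ± 5.19 and 6.07 ± 1.97, and VIP 0.454 ± 0.489 and 0.546 ± 0.228 CPM. The ranges overlapped for all 5 genes. By edgeR's quasi-likelihood test with Benjamini-Hochberg adjustment over all genes, 0 of 16743 genes passed (0%), although 4916 had an unadjusted p under 0.05 and DESeq2 called 2833. The log2 fold change of E70 over E60 was -2.56 ± 1.16 (SE) for SST (edgeR adjusted p = 0.182), -2.75 ± 1.01 for CCK (adjusted p = 0.138), -0.86 ± 0.85 for NPY (adjusted p = 0.498), 0.88 ± 1.15 for CORT (adjusted p = 0.608) and 0.24 ± 0.81 for VIP (adjusted p = 0.85). Single libraries decided these values. Without E70_3 the change of SST was -5.23 (adjusted p = 0.0233) and 1570 genes were called, and without E60_3 that of CORT was 3.96 (adjusted p = 0.0157), that of CCK -3.19 (adjusted p = 0.0446) and 5902 genes were called. Without E60_1 and E60_2, which leaves 1 library at E60 whose spread is taken from E70, the changes were -0.88 for SST, -0.81 for CCK, -1.08 for NPY, -0.58 for CORT and -0.81 for VIP, and 0 genes were called.

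The share of SST cells was 0.593% to 2.66% at E60 and 0.162% to 0.417% at E70, with no overlap, a difference of -1.59 percentage points (exact two-sided permutation test, p = 0.1, the smallest that 3 against 3 libraries allow, and 0.5 after Benjamini-Hochberg adjustment over the 5 genes). Thinned to 2000 UMIs per cell the shares overlapped, at 0.148% to 1.77% and 0 to 0.192% (exact permutation p = 0.3), and with thresholds of 1 and of 2 UMIs p was 0.2. Without E60_1 and E60_2 the difference was -0.333 percentage points. The shares of the other cells overlapped between the stages, with differences of -0.692 for NPY (exact permutation p = 0.9), 0.375 for CORT (p = 0.6), -0.836 for CCK (p = 0.3) and -0.0405 for VIP (p = 1). E60_3 and E70_3 carry the same number in the study's list of libraries, as do E60_1 and E70_1, and by its methods libraries of different stages were pooled in pairs for sequencing. In the first of these pairs SST went from 29.2 to 40.4 CPM and NPY from 50.6 to 27.1 CPM, and in the second SST went from 86.1 to 1.43 CPM and NPY from 65.4 to 18.5 CPM, so NPY was lower at E70 in both pairs and SST in 1 of them.

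Cells were next sorted by marker gates fixed on other genes, namely GABAergic (GAD1, GAD2, SLC32A1), glutamatergic (SLC17A6, SLC17A7, SLC17A8), astroglial (AQP4, GFAP, SLC1A3, SLC1A2, SOX9, GJA1), oligodendroglial, microglial, vascular and erythroid. Of the 493 SST cells, 129 passed the GABAergic gate alone, 57 the glutamatergic and 56 the astroglial gate alone, 91 passed several gates and 137 none. In all, 41.4% of SST cells passed the GABAergic gate, against 7.8% of all cells. By library it was 53.4%, 31.3%, 38.8%, 68.8% and 53.8% of SST cells in E50_1, E60_1, E60_2, E60_3 and E70_3, against 13.3%, 4.91%, 6.52%, 10.2% and 8.56% of all cells. The glutamatergic gate, with or without another, was passed by 14.6% of SST cells, against 7.83% of all cells. In E50_1, E60_1 and E60_2 it was 23%, 10.6% and 12.5% of SST cells, against 13.1%, 1.6% and 1.06% of all cells. In E60_3 and E70_3 it was 12.5% and 0, below the 20.3% and 13.6% of all cells. Over all libraries, NPY and CCK cells passed the GABAergic gate less often than SST cells. Of the 727 NPY cells, 94 passed the GABAergic gate alone and 289 the astroglial gate alone, and 59.1% passed the astroglial gate with or without another, against 38.2% of all cells. This did not hold in E60_1, where 40.3% of NPY cells and 56.7% of all cells passed it. In E50_1, E60_3, E70_1, E70_2 and E70_3 it was 58.4%, 82.9%, 45.5%, 50% and 61.1% of NPY cells against 25.1%, 38.4%, 34.7%, 28% and 36.8% of all cells, and the NPY cells of E60_3 were also deeper, as given above. Of the 398 CCK cells, 14 passed the GABAergic, 58 the glutamatergic and 150 the astroglial gate alone, and 56.5% passed the astroglial gate, with 34.4% in E50_1, 69.8% in E60_1, 76.5% in E60_3 and 96.4% in Adult_1, all above the share of all cells, and 26.7% in E60_2 and 25.9% in E70_3, both below it. CORT cells were the purest, with 60 of 82 in the GABAergic gate alone and 0 in the glutamatergic or astroglial gate alone. Of the 29 VIP cells, 10 passed the GABAergic gate alone, 2 the glutamatergic gate alone, 6 several and 11 none. Over all libraries the level in cells of the GABAergic gate alone was 446 CPM for SST, 196 for NPY, 41.8 for CORT, 23.4 for CCK and 18.5 for VIP, and in microglia it was 12.2, 5.61, 0.55, 5.61 and 0.66 CPM.

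**Figure D2:**
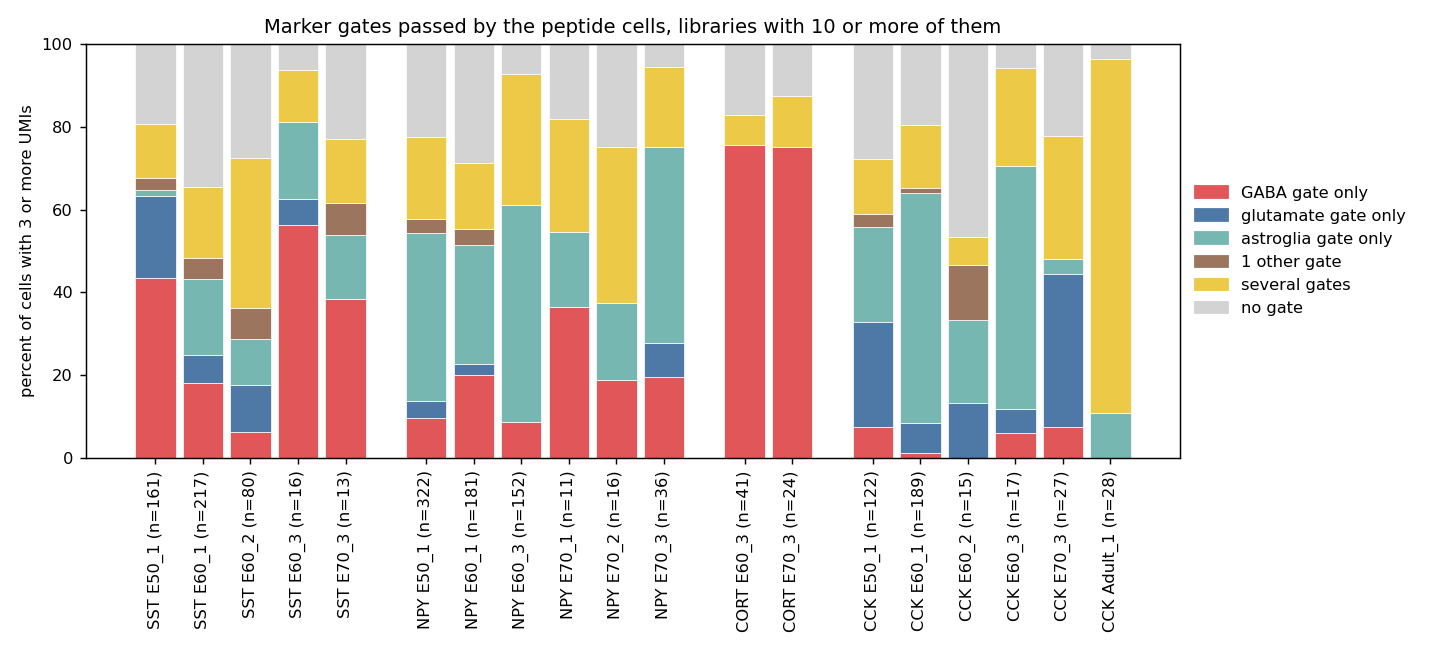
Share of peptide cells (percent) that passed each marker gate, for each peptide gene and each library with at least 10 such cells. Each bar is 1 library and its colors are the gates passed. CORT cells fall mostly in the GABAergic gate, whereas NPY and CCK cells hold a large astroglial part.

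What else SST cells expressed was tested by comparing their summed UMIs with those of all cells of the same library without an SST UMI, with the library as a block, in the 5 libraries with at least 10 SST cells (E50_1, E60_1, E60_2, E60_3 and E70_3). No marker gene chose either side here, and the comparison was added after the data had been seen. SST cells had higher levels of GABA genes, of granule proteins and of several other peptides, and lower levels of genes of the astroglial gate. By edgeR 3515 of 16454 genes were called (21.4%), 1248 higher and 2267 lower, and the median log2 fold change over all genes was -0.13. Without E60_1 the number was 1891, and without E60_1 and E60_2 it was 1858. Against other neurons alone, as described below, 0 of 13 granule genes (median 0.13) and 1 of 13 other neuropeptides were called. Of the 5 GABA neuron genes, some of which the gates used, 0 were called there (median -0.27).

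Of 5 GABA neuron genes 4 were higher in SST cells, with a median log2 fold change of 2.30. GAD2, which makes GABA, was at 132, 136, 167, 159 and 186 CPM in the SST cells of E50_1, E60_1, E60_2, E60_3 and E70_3, and at 44.1, 15.5, 15.7, 28.2 and 29.7 CPM in the other cells. The groups did not overlap, with a log2 fold change of 2.49 ± 0.22 (SE, edgeR adjusted p = 8.67e-06), and SLC32A1, which loads GABA into vesicles, reached 2.89. A UMI of GAD1, GAD2 or SLC32A1 was found in 62.1%, 54.4%, 50%, 75% and 61.5% of SST cells, against 17.4%, 2.59%, 4.02%, 14.5% and 5.8% of microglia. Of 10 general neuron genes 8 were higher, with a median of 1.44, while 5 of the 6 genes of the astroglial gate were lower (median -1.71), among them AQP4, the astrocyte water channel (-2.10), and SLC1A3, a glial glutamate transporter (-1.64).

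Of 13 genes of peptide processing and secretory granules 8 were higher and none lower, with a median of 0.77. SCG2 (secretogranin II, a granule protein) was at 256, 138, 137, 101 and 93.1 CPM in SST cells of the 5 libraries and at 64.2, 21.5, 5.86, 21.8 and 40.1 CPM in the others, a log2 fold change of 2.43 ± 0.30 (edgeR adjusted p = 6.5e-05). CHGB, chromogranin B, was at 1.89 ± 0.38, SCG5, the chaperone of a prohormone convertase, at 1.47 and PCSK1N, an inhibitor of a convertase, at 1.37. These 4 were also called without E60_1 and E60_2, where 4 of 13 were. SEZ6L2, a membrane protein of neurons, was higher by 1.68 and was not called without the pair (adjusted p = 0.103). Of 9 receptor genes of the 5 peptides 2 were higher, NPY2R (2.29) and NPY5R (1.93), both receptors for NPY, and neither was called without E60_1 alone (adjusted p = 0.137 and 0.109), nor NPY2R without E50_1 (0.186).

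Other neuropeptides were also found in SST cells, where 8 of 25 genes were higher and 3 lower (median 0.56). PNOC, the precursor of nociceptin, was at 108, 61.1, 110, 123 and 158 CPM in SST cells and at 20.7, 9.57, 3.81, 8.52 and 8.82 CPM in the others, a log2 fold change of 3.33 ± 0.29 (edgeR adjusted p = 8.67e-06). It was higher in all 5 libraries. TAC1, the precursor of substance P, was at 36.1, 330, 110, 36.2 and 244 CPM against 20.7, 48.5, 13.8, 1.82 and 5.08 CPM (2.85 ± 0.45, adjusted p = 0.000399). NMB, which encodes neuromedin B, was higher by 1.73, and CRH, the stress hormone precursor, by 1.99, although CRH was not called without E60_1 (adjusted p = 0.104) or without E60_3 (0.300). NPPC and TRH were at 2.19 and 1.82, and neither was called without E60_1 (adjusted p = 0.204 and 0.189). PYY, a relative of NPY, was lower, at -2.57.

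The lists of interneuron origin gave a mixed picture. Of 15 genes of interneurons from the medial ganglionic eminence 5 were higher and 2 lower (median 0.48). NXPH1, a secreted neurexin ligand, was at 239, 458, 269, 1179 and 988 CPM in SST cells and at 121, 63.7, 60, 245 and 208 CPM in the others, a log2 fold change of 1.96. CRHBP, which binds corticotropin-releasing hormone, was at 34.1, 19.8, 0, 123 and 172 CPM against 6.22, 11.5, 2.97, 5.57 and 5.26 CPM, so it was higher in 4 of 5 libraries (2.67), and DESeq2 gave it an adjusted p of 0.0876. LHX6, the transcription factor that these interneurons need, was found in 37.5% and 30.8% of SST cells of E60_3 and E70_3, 4.97% of E50_1, 0.461% of E60_1 and 0 of E60_2, with 2.41%, 4.35%, 0, 0.123% and 0 of microglia. Without E60_1 and E60_2, 8 of 15 of these genes were higher and none lower (median 0.91), LHX6 among them (1.68), as were 2 of 3 DLX genes, where the full comparison had 1, DLX1, a call lost without E50_1, E60_3 or E70_3 (adjusted p = 0.0565 to 0.0645). Of 12 genes of the caudal ganglionic eminence 3 were higher and 2 lower (median 0.11). The 3 were CALB2 (1.86), which encodes calretinin and was also the 1 called of 3 calcium-binding proteins, LAMP5 (1.71) and NDNF (1.03). LAMP5 and NDNF were not called without E50_1 (adjusted p = 0.158 and 0.0985) or without E60_1 (0.140 and 0.0537).

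Transcription factors of the midbrain, hindbrain and diencephalon were higher in SST cells for 12 of 33 genes and lower for 2, with a median of 1.06. TFAP2B, which is active in GABAergic neurons of the midbrain and cerebellum, was at 120, 44, 53.1, 3.62 and 50.1 CPM in SST cells of E50_1, E60_1, E60_2, E60_3 and E70_3 and at 26.6, 3.75, 5.94, 0.546 and 1.45 CPM in the others (2.95 ± 0.32, edgeR adjusted p = 2.53e-05). It was higher in 5 of 5 libraries and stayed called in every alternative that was run. In E60_3 the direction rests on very few UMIs, since the 16 SST cells there held 277226 UMIs in all. EN2 was at 44.4, 104 and 28.5 CPM against 22.4, 34.8 and 13.7 CPM in E50_1, E60_1 and E60_2, and it had 0 UMIs in the SST cells of E60_3 and E70_3. GATA3, which specifies GABAergic neurons of the midbrain, was higher in all 5 libraries (1.67) and SOX14, of thalamic and midbrain GABAergic neurons, in 4 (2.12), but neither was called without E60_1 and E60_2 (adjusted p = 0.214 and 0.0757), where 7 of 31 genes were higher and 2 lower (median 0.29). Of 13 genes of cortical glutamatergic neurons 4 were lower and none higher (median -0.51), of which EMX1 (-1.43) and FEZF2 (-2.26) were not called without E50_1 (adjusted p = 0.805 and 0.732), nor EMX1 without E60_1 (0.0655) or E70_3 (0.0763). DESeq2 gave FEZF2 a change of 0.07.

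Of 11 genes of cyclic AMP and activity signalling 7 were lower in SST cells and 1 was higher (median -0.99). FOS was at -1.55, EGR1 at -1.70, ATF3 at -1.55 and NR4A2 at -1.23, all immediate early genes that neurons and glia induce on stimulation. CREB1, the factor that binds the element shown above, was at -0.61 and was not called without E60_1 (adjusted p = 0.0743). BDNF, a neurotrophin, was higher by 1.94 and was not called without E60_1 and E60_2 (adjusted p = 0.0593).

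**Figure D3:**
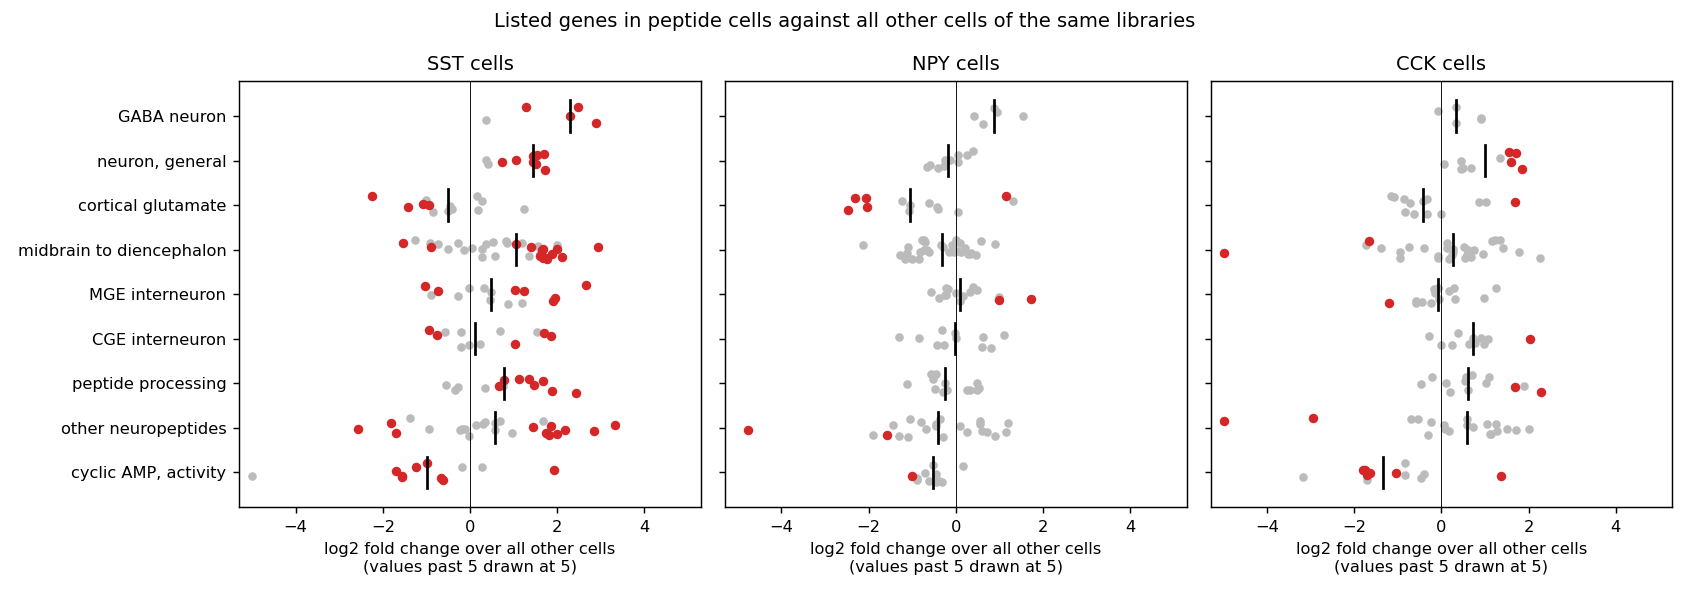
Log2 fold change of each listed gene in SST, NPY and CCK cells against all other cells of the same libraries. Points are genes, red where the edgeR adjusted p was under 0.05, the black bar is the median of the list, and values past 5 are drawn at 5. GABA neuron genes lie highest in SST cells, with a median of 2.30.

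When the comparison cells were restricted to other neurons (the GABAergic or the glutamatergic gate alone, without an SST UMI), 11 of 11863 genes were called in SST cells (0.0927%), 10 higher and 1 lower. Among the higher genes were ZFP36L1 (2.07 ± 0.34, edgeR adjusted p = 0.0371), MFGE8 (1.88), SELENOP (1.83) and DAB2 (1.42), each in 5 of 5 libraries. Of the others, GNRH1 (4.24), the precursor of gonadotropin-releasing hormone, was higher in 4 of 5 libraries, and AQP4, C1QC and HBM belonged to the gates of astroglia, microglia and erythroid cells. The gates kept glia out of the comparison cells only. With the GABAergic gate on both sides these 4 were at -0.33, -0.09, -0.66 and -0.46, and 5 genes were called. The single lower gene, SLC17A6, was used by the gates. No list had more than 1 called gene. The count turned on single libraries, with 25 without E50_1, 48 without E60_1, 0 without E60_2, 2 without E60_3 and 1 without E70_3. Without E60_1 and E60_2 it was 248, and then 5 of 14 genes of the medial ganglionic eminence were higher (SOX6, SATB1, CHODL, CRHBP and GRIN3A), 3 of 13 genes of cortical glutamatergic neurons were lower, NEUROD2 and NEUROD6 among them, and PNOC, PENK, TAC1 and GNRH1 were the 4 of 16 neuropeptides that were higher.

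CORT was high in the SST cells of E60_3 and E70_3, the 2 of these 5 libraries with cortical genes and few EN2 UMIs. It was at 138 CPM in SST cells of E60_3 and 337 CPM in those of E70_3, against 7.57 and 5.52 CPM in all other cells, and at 4.65 against 1.18 CPM in E50_1. In SST cells of E60_1 and E60_2 there were 0 CORT UMIs. The log2 fold change against all other cells was 3.71 ± 0.63 (edgeR adjusted p = 0.00061), which was not called by DESeq2 (adjusted p = 0.0851), and against other neurons it was 2.18 ± 0.50 (adjusted p = 0.136), or 2.41 ± 0.31 without E60_1 and E60_2 (edgeR adjusted p = 9.41e-07, 3 libraries). Of the SST cells with at least 50 UMIs of SST, 3 of 3 in E60_3 and 3 of 3 in E70_3 held CORT, with 13 and 39 CORT UMIs, against 1 of 42 in E50_1, 0 of 12 in E60_1 and 0 of 15 in E60_2.

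NPY in SST cells was at 138 CPM in E50_1, 81.8 in E60_1, 7.59 in E60_2, 535 in E60_3 and 2535 in E70_3, against 77.7, 63.5, 2.55, 45.2 and 12.2 CPM in the other cells. It was higher in 5 of 5 libraries (2.49 ± 0.80, edgeR adjusted p = 0.0345), by a wide margin in E60_3 and E70_3 and by less than 3 times in the other libraries, and it was not called without E60_3 (adjusted p = 0.133) or by DESeq2 (0.0890). Against other neurons without E60_1 and E60_2 it was higher by 4.14 ± 0.56 (adjusted p = 2.01e-06). CCK was at 81.6, 83.6, 165, 7.24 and 21.5 CPM against 23.5, 61.9, 9.16, 8.81 and 10.2 CPM (1.64 ± 0.42, adjusted p = 0.0112) and was higher in 4 of 5 libraries, with the widest gap in E60_2. VIP had UMIs in the SST cells of E50_1 alone (17 against 1.16 CPM), and its fitted fold change is not read.

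Cells with at least 3 UMIs of both peptides numbered 37 for SST and NPY, 28 for SST and CCK, 21 for NPY and CCK, 17 for NPY and CORT, 12 for SST and CORT, 2 each for SST and VIP and for CCK and VIP, and 0 for the other pairs. The product of the shares within libraries gave 15.5 for SST and NPY, 9.15 for SST and CCK, 12.7 for NPY and CCK, 3.16 for NPY and CORT and 0.53 for SST and CORT. By library, SST and NPY met in 7 of 13 SST cells of E70_3 and 4 of 16 of E60_3, and in 11 cells of E50_1, where the product gave 9.42. SST and CORT met in 6 of 16 SST cells of E60_3 and 4 of 13 of E70_3. SST and CCK met in 14 cells of E50_1 and in 7 of the 15 CCK cells of E60_2.

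**Figure D4:**
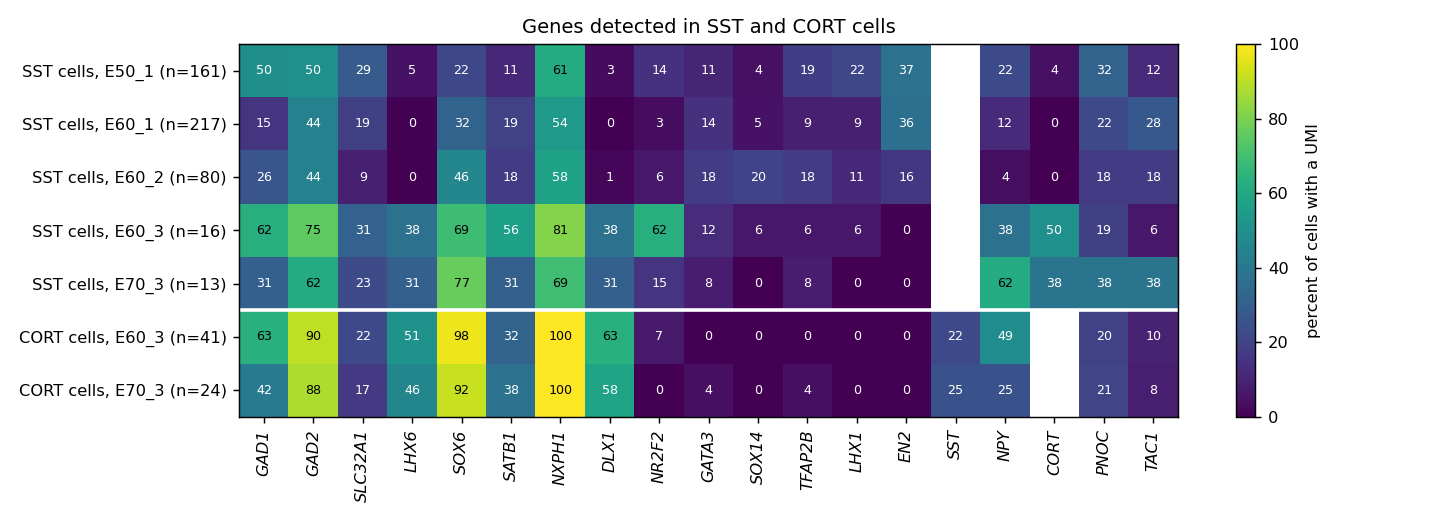
Percent of SST cells and of CORT cells with at least 1 UMI of 19 genes, by library. Rows are libraries, columns are genes and the printed numbers are percents. The rows of E60_3 and E70_3 hold LHX6, in 37.5% and 30.8% of SST cells, and those of E50_1, E60_1 and E60_2 hold EN2, in 37.3%, 36.4% and 16.2% of SST cells.

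CORT cells reached 10 in 2 libraries only, E60_3 (41 cells) and E70_3 (24 cells), too few libraries for a fit, so their values are given without a test. Their depth was close to that of other neurons, with a median of 6782 against 6797 UMIs in E60_3 and 5611 against 6327 UMIs in E70_3. A UMI of GAD1, GAD2 or SLC32A1 was found in 100% and 95.8% of them, against 14.5% and 5.8% of microglia. NXPH1 was at 3342 and 3882 CPM, against 480 and 428 CPM in other neurons, and was found in every CORT cell. SOX6, needed for the position of somatostatin interneurons, was at 724 and 600 CPM against 78.1 and 78 CPM, and was found in 97.6% and 91.7% of CORT cells and 19.3% and 27.5% of microglia. LHX6 was at 86.3 and 120 CPM against 7.95 and 14.3 CPM, and MAF at 292 and 347 CPM against 22.3 and 34.9 CPM. SATB1, which matures somatostatin interneurons, was at 86.3 and 101 CPM against 26.2 and 29.3 CPM. NR2F2, a factor of the caudal ganglionic eminence, was found in 7.32% and 0 of CORT cells, against 50.1% and 33.6% of other neurons. SST itself was found in 22% and 25% of CORT cells and NPY in 48.8% and 25%, so most CORT cells of both libraries had no SST UMI. NPY1R, a receptor of NPY, was at 103 and 75.7 CPM in CORT cells and 40.8 and 44.3 CPM in other neurons, and was found in 3.61% and 0 of microglia against 46.3% and 33.3% of CORT cells. SSTR2, a receptor of somatostatin and cortistatin, was lower in CORT cells, at 16.7 and 37.9 CPM against 70.5 and 47.5 CPM in other neurons.

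NPY cells were compared with all other cells in 6 libraries (E50_1, E60_1, E60_3 and the 3 E70 whole cell libraries). PTN and PHGDH were higher in 6 of 6 libraries, 1 of the 6 genes of the astroglial gate was higher (AQP4), and CORT, but not SST or CCK, was called. Of 15755 genes 680 were called (4.32%), 174 higher and 506 lower, with a median log2 fold change of -0.06 over all genes. Each library left out moved this count, to 275 without E50_1, 318 without E60_3, 323 without E70_2, 376 without E70_1, 378 without E70_3 and 1903 without E60_1.

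PTN, which encodes the growth factor pleiotrophin, was at 3616, 3667, 6774, 1429, 2722 and 6608 CPM in NPY cells of E50_1, E60_1, E60_3, E70_1, E70_2 and E70_3 and at 1211, 2519, 738, 372, 357 and 1810 CPM in the others (1.96 ± 0.28, edgeR adjusted p = 0.0028). PHGDH, an enzyme of serine synthesis in astroglia, was at 131, 43.5, 96.1, 57, 58.3 and 99 CPM against 19.2, 25, 12.6, 11, 10.9 and 31.4 CPM (2.13 ± 0.27, adjusted p = 0.00174). SLCO1C1, a thyroid hormone transporter, was higher by 2.58 ± 0.34 and GPR75 by 2.27 ± 0.39, both in 6 of 6 libraries. AQP4 was higher in 5 of 6 libraries (1.90 ± 0.38, adjusted p = 0.0157), and in E60_1, where it was at 1095 CPM in NPY cells and 1225 CPM in the others, it was not. It was not called without any one of the 3 E70 libraries (adjusted p = 0.0588 to 0.0848).

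Of the neuronal lists, 0 of 10 general neuron genes, 0 of 5 GABA neuron genes (median 0.87), 0 of 13 granule genes, 0 of 8 receptors, 0 of 3 DLX genes, 0 of 3 calcium-binding proteins, 0 of 11 genes of the caudal ganglionic eminence and 0 of 30 of midbrain, hindbrain and diencephalon differed from the other cells. Of 15 genes of the medial ganglionic eminence 2 were higher, among them NXPH1 (0.99), though not without E70_1, E70_2 or E70_3 (adjusted p = 0.0576 to 0.0936). SOX6 was found in 78.9%, 32%, 98.7%, 100%, 93.8% and 69.4% of NPY cells of the 6 libraries, against 8.7%, 5.93%, 19.3%, 53.3%, 35% and 27.5% of microglia, and it was called without E60_1, where it was higher by 1.44. SOX6 was not confined to neurons, at 201 and 198 CPM in all cells without a CORT UMI of E60_3 and E70_3, against 78.1 and 78 CPM in their neurons without CORT. Since 59.1% of NPY cells passed the astroglial gate, SOX6 is not read as an interneuron trait of NPY cells. Of 13 genes of cortical glutamatergic neurons 4 were lower, among them TBR1 (-2.07), NEUROD2 (-2.04) and NEUROD6 (-2.47), of which NEUROD6 was called only with all 6 libraries or without E60_1 (adjusted p of at most 0.133 otherwise), and FEZF2 was higher (1.16) in 5 of 6 libraries, with 0 UMIs on both sides in E60_1. FEZF2, which is expressed in cortical progenitors and deep layer neurons, was not called without E50_1 (adjusted p = 0.0943), E60_3 (0.152), E70_2 (0.0661) or E70_3 (0.0815). Of 11 activity genes NR4A1 alone was called, and it was lower. Of 22 neuropeptides NMU and PYY were lower. The calls of NR4A1 and NMU were lost without E50_1 (adjusted p = 0.179 and 0.117) and without each E70 library (0.0583 to 0.142), and that of NMU also without E60_3 (0.0797). PYY was at 0 to 2.65 CPM in NPY cells of the 6 libraries and at 14 to 59 CPM in the others (-4.76 ± 0.35, adjusted p = 0.000201).

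CORT was at 1.86, 0, 25.8, 22.8, 40.4 and 73.3 CPM in NPY cells of E50_1, E60_1, E60_3, E70_1, E70_2 and E70_3 and at 1.14, 0.223, 6.64, 3.34, 5.15 and 6.09 CPM in the others, higher in 5 of 6 libraries (2.31 ± 0.42, edgeR adjusted p = 0.0104). SST was at 2.01 ± 0.80 (adjusted p = 0.19) and CCK at 0.62 (adjusted p = 0.573). Against other neurons 2324 of 12964 genes were called in NPY cells (17.9%), 1358 higher and 966 lower, and 1398 were called without E50_1, 2536 without E60_1 and 1166 without E60_3. The comparison cells were chosen by GABA and glutamate genes, which are therefore not read. The NPY cells were chosen without a gate, and 59.1% of them passed the astroglial gate. This choice of cells favors lower neuron genes and higher astroglial genes, which are not read as traits of NPY cells either. Here 9 of 10 general neuron genes and 8 of 13 cortical glutamatergic genes were lower, while SOX6 (1.92) and ETV1 were higher, and AQP4 (5.91), which the gates used, FGL2 (5.91), TCF19 (5.08) and HES1 (5.07), a Notch target of radial glia, were among the highest. With the GABAergic gate on both sides 2 genes were called, or 1 with that gate alone, and AQP4 was then at -0.12, NEUROD6 at 0.01 and CPE, a granule enzyme, at -0.22 where it had been among the higher genes.

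Within the astroglial gate, the NPY cells of 4 libraries (E50_1, E60_1, E60_3 and E70_3) were set against the other astroglia, a comparison that was added after the data had been seen. Of 13544 genes 16 were called (0.118%), 3 higher and 13 lower, and the number was 362 without E60_1, 5 without E60_3 and 0 without E70_3. PHGDH was at 202, 120, 132 and 198 CPM in the NPY astroglia and at 51.9, 47.3, 33.9 and 89.8 CPM in the others (1.60 ± 0.22, edgeR adjusted p = 0.0174). FABP7, a fatty acid binding protein of radial glia, was at 5548, 5456, 4859 and 6689 CPM against 1985, 3110, 1369 and 2815 CPM (1.30 ± 0.16, adjusted p = 0.0174). Both separated the groups without overlap, and PHGDH was also not called without E50_1 (adjusted p = 0.0575) or E60_3 (0.0930). SEMA3C, a secreted guidance cue (-2.75), NEUROD2 (-2.64) and CDC42EP3 (-2.5) were among the lower genes, and none of the 3 was called without E60_3 or without E70_3, nor were NEUROD2 and CDC42EP3 without E50_1 (adjusted p = 0.204 and 0.173). OLIG1, at -2.47, belonged to the gates. Of the lists, 3 of 12 cortical glutamatergic genes and 1 of 13 granule genes (PCSK1) were lower, and the others held 0 called genes.

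CCK cells were compared with all other cells in 6 libraries (E50_1, E60_1, E60_2, E60_3, E70_3 and Adult_1). CALB2 and CHGB were higher in 6 of 6 libraries, and the dopamine neuron genes TH and SLC6A3 were high in E50_1 and E60_1. Of 15407 genes 1522 were called (9.88%), 508 higher and 1014 lower, with a median of -0.07 over all genes. The number was 818 without E60_1, 860 without E60_2 and 281 without both. Of 10 general neuron genes 4 were higher (median 1.01), of 5 GABA genes 0 (median 0.33), of 3 DLX genes 0, of 7 receptors 0 and of 13 granule genes 2 (median 0.62). CHGB, of the latter, was at 73.2, 48.7, 118, 118, 186 and 49 CPM in CCK cells and at 46.1, 16.6, 3.88, 15.8, 36.8 and 5.55 CPM in the others, higher in 6 of 6 libraries (2.29 ± 0.40, edgeR adjusted p = 0.0043). PCSK1N (1.69) was the second, and it was not called without E60_1 and E60_2 (adjusted p = 0.0940). Without that pair 0 of 10 general neuron genes (median 0.84), 1 of 13 granule genes (CHGB), 0 of 5 GABA genes and 0 of 12 activity genes were called.

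CALB2 was at 285, 122, 39.4, 413, 59.4 and 108 CPM in CCK cells of E50_1, E60_1, E60_2, E60_3, E70_3 and Adult_1 and at 71.1, 29.4, 7.73, 70.3, 26.2 and 15.9 CPM in the others (2.02 ± 0.22, edgeR adjusted p = 0.000288), and it was called in every alternative. It was the 1 called of 11 genes of the caudal ganglionic eminence and of 3 calcium-binding proteins. RBP4, which carries retinol, was higher in 6 of 6 libraries (2.5 ± 0.46, adjusted p = 0.00595), as were CPNE6 (2.87), SNCB (2.73), which encodes beta-synuclein, and CALY (2.5), a dopamine receptor interacting protein. CPNE6 was not called without E70_3 (adjusted p = 0.0538), and SNCB (0.0549) and CALY (0.0646) were not called without E60_2. RBP4 was also called without E60_1 and E60_2, and CPNE6, SNCB and CALY were not (adjusted p = 0.0696 to 0.135). Of 12 activity genes 5 were lower (median -1.34), among them EGR1 (-1.65) and FOS (-1.80), which was not called without E60_1, E60_2 or E70_3 (adjusted p = 0.0546 to 0.0736), and BDNF was higher (1.38), a call that was lost without any one of the 5 fetal libraries. Of 15 genes of the medial ganglionic eminence MAF was lower (-1.21), of 13 cortical glutamatergic genes NRN1 was higher (1.69), of 30 genes of midbrain, hindbrain and diencephalon EBF1 (-1.68) and GATA2 were lower (the calls of MAF and EBF1 were lost without any one of E60_1, E60_2, E60_3 and E70_3), and of 20 neuropeptides PYY was lower and GNRH1 had 0 UMIs in CCK cells. Of these, GATA2 and PYY were called without E60_1 and E60_2, and MAF, NRN1, EBF1, EGR1, FOS and BDNF were not (adjusted p = 0.0513 to 0.304).

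TH, the rate-limiting enzyme of dopamine synthesis, SLC6A3, the dopamine transporter, and ALDH1A1, an aldehyde dehydrogenase of dopamine neurons, were picked after their values had been seen. TH was at 177 CPM in CCK cells of E50_1 and 3.61 CPM in the other cells, and at 113 and 3.42 CPM in E60_1, with 252 and 128 UMIs in CCK cells. SLC6A3 was at 70.4 against 1.48 CPM in E50_1 and 154 against 2.61 CPM in E60_1. Neither had a UMI in the CCK cells of the other 4 libraries. The log2 fold changes were 5.01 ± 0.48 for TH (edgeR adjusted p = 0.000287) and 4.63 ± 0.76 for SLC6A3 (adjusted p = 0.00375, DESeq2 0.234). ALDH1A1 was at 472, 176, 0, 9.04, 5.94 and 177 CPM in CCK cells of the 6 libraries and at 3.19, 1.53, 1.19, 4.96, 7 and 17.5 CPM in the others, so that Adult_1, which lacked TH in CCK cells, also showed it. Its change of 3.89 ± 1.00 (adjusted p = 0.030) was not called without E50_1 (0.0696), E60_1 (0.105) or E60_2 (0.067). In the fit without E60_1 and E60_2 TH was at 5.34 (adjusted p = 0.0192) and ALDH1A1 at 3.07 (0.210), and SLC6A3 had no value there, nor without E50_1 or E60_1 alone.

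By transmitter, a UMI of SLC17A6, SLC17A7 or SLC17A8, the vesicular glutamate transporters, was found in 50.8% of CCK cells of E50_1, 15.9% of E60_1, 53.3% of E60_2, 29.4% of E60_3, 66.7% of E70_3 and 28.6% of Adult_1. The shares of all cells were 31.4%, 4.79%, 4.37%, 40.8%, 32.9% and 11.8%, and those of microglia 19.6%, 2.22%, 2.81%, 8.43%, 10.1% and 7.33%. The share of CCK cells was thus below that of all cells in E60_3 and above it in the other 5 libraries, and the median depth of CCK cells was above that of their library in all 6. In the 27 CCK cells of E70_3 NEUROD6 was at 941 CPM and SLC17A7 at 51.9 CPM, against 319 and 29.4 CPM in other neurons. A UMI of NEUROD6 was found in 70.4% of them, 31.8% of other neurons and 1.45% of microglia, at median depths of 24281, 5954 and 9500 UMIs. In E60_1, 77.8% of CCK cells held no UMI of either a GABA or a glutamate gene. The 28 CCK cells of Adult_1 held markers of several types, since 24 passed several gates and 27 the astroglial gate (96.4%, against 40.6% of that library), with GFAP in 92.9% and AQP4 in 82.1%. Their depth was more than 2 times that of the library, as given above, and the part of cells caught together in it was not tested.

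Against other neurons, 78 of 12365 genes were called in CCK cells (0.631%), 59 higher and 19 lower, in 5 libraries. The number was 10 without E50_1, 51 without E60_2, 34 without E60_3 and 313 without E70_3, and without E60_1 and E60_2 it was 95, 68 higher and 27 lower. CORT was lower (-3.87 ± 0.59, edgeR adjusted p = 0.0195), with 1 UMI in the CCK cells of each of E50_1, E60_3 and E70_3 against 25, 207 and 140 UMIs in other neurons. In E60_1 and E60_2 there were 0 against 2 and 1 UMIs, which give no direction, and without the pair the change was -3.82 (adjusted p = 0.00870). The adjusted p was 0.0535 without E50_1, while SST (-1.90, adjusted p = 0.426) and NPY (-1.96, adjusted p = 0.257) were not called. The comparison cells alone were chosen by the neuronal gates, and 85.4% of CORT cells but 8.54% of CCK cells passed the GABAergic gate. Lower CORT, and lower NXPH1 below, are thus favored by the choice of cells and are not read as traits of CCK cells. GAD2, used by the gates, was at 32.4, 10.6, 19.7, 24.1 and 19.3 CPM in CCK cells and at 195, 242, 221, 136 and 154 CPM in other neurons. S100A14, a calcium-binding protein of epithelia, was higher by 4.42 ± 0.41 (adjusted p = 0.00112). NXPH1 was lower (-2.56), as was TRH (-3.44), which was not called without E60_1 (adjusted p = 0.270). GAL, the precursor of galanin, was at 64.8 and 84.1 CPM in CCK cells of E50_1 and E60_1 against 2.33 and 0.818 CPM, and had 0 UMIs in those of the other 3 libraries.

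Within the astroglial gate, CCK cells of E50_1, E60_1 and E60_3 differed from other astroglia in 32 of 13471 genes (0.238%), 15 higher and 17 lower, or 21 without E50_1, 119 without E60_1 and 5 without E60_3. TH (6.39 ± 0.41), SLC6A3 (6 ± 0.52) and ALDH1A1 (5.85 ± 0.55, edgeR adjusted p = 4.05e-08, DESeq2 0.231) were higher. TH and SLC6A3 were each higher in 2 of the 3 libraries, and SLC6A3 was lower in 1. CALB2 was higher by 2.04 ± 0.29 and NDNF by 2.84, and neither was called without E60_3 (adjusted p = 0.123 and 0.956). Of 12 cortical glutamatergic genes 3 were lower (median -1.43), with 0 UMIs of NEUROD2 in CCK astroglia and NEUROD6 at -4.45. PENK, 1 of 10 neuropeptides, and MEIS2, 1 of 21 genes of midbrain, hindbrain and diencephalon, were lower, and the lists of granule, receptor, GABA, general neuron and activity genes and of the medial ganglionic eminence held 0 called genes.

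VIP cells reached 10 in no library, and their values are given without a test. A UMI of GAD1, GAD2 or SLC32A1 was found in 5 of 7 VIP cells of E50_1, 4 of 5 of E60_3, 80% of the 5 of E70_nc and 71.4% of the 7 of Adult_nc. LHX6 had 0 UMIs in the VIP cells of all 4 of these libraries. ADARB2, a marker of interneurons from the caudal ganglionic eminence, was found in 4 of 5 VIP cells of E60_3 and 5 of 7 of Adult_nc, and CALB2 and NR2F2 each in 4 of 5 of E60_3. The 3 VIP cells of Adult_1 all passed several gates, at a median depth of 30351 UMIs against 6893 for the library. VIP was at 2.88 ± 1.21 in CCK cells against all other cells (edgeR adjusted p = 0.159), and 2 cells of Adult_1 held at least 3 UMIs of both.

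The genes whose pattern was most like that of each member were ranked by Pearson's r of log2(CPM + 1) over 53 sums of the cells of 1 gate in 1 library (at least 20 cells), among 16510 genes. These sums share libraries and depths, so the values describe the pattern and carry no test. For SST the highest were CD70 (0.866), TAC1 (0.804), FNDC9 (0.795) and CBLN4 (0.781), which encodes a synaptic organizer. For CORT they were DLX5 (0.804), DLX1 (0.721) and CRH (0.665), and DLX5 and DLX1 are factors of forebrain GABAergic neurons. For NPY they were SCG2 (0.699), BEX5 (0.679), CRH (0.673) and CHRNB2 (0.670), for CCK RHBDL1 (0.810), ENHO (0.808), NEFL (0.786) and MESP1 (0.780), and for VIP GIMD1 (0.780), TNFRSF11B (0.597) and GAD1 (0.593). Among the members, r was 0.638 for NPY and CCK, 0.632 for SST and CCK, 0.596 for SST and NPY, 0.508 for NPY and CORT, 0.362 for SST and CORT, 0.180 for SST and VIP and -0.0266 for CCK and VIP.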

How the data were processed

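Single cells and nuclei were captured with the 10x Genomics platform, and the authors deposited 1 table per library of UMI counts per gene and cell, not normalized, made with Cell Ranger (version 2.20 in the submitters' processing notes) on Sscrofa11.1 with reads in introns included. Of the Ensembl identifiers, 987 were given a symbol from the RefSeq gene table, and 6495 rows kept their identifier. The members, lists and comparisons were chosen with earlier results of these data known. Peptide cells held at least 3 UMIs of the gene. Cells passed the GABAergic or glutamatergic gate with at least 2 UMIs of its genes, other gates with at least 3 UMIs of at least 2 genes, and the erythroid gate with over 5% of UMIs in hemoglobin genes. No doublet caller was run.

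UMIs were summed per library over all cells, or over the peptide cells and the comparison cells of each library with at least 10 on each side, and tested where at least 3 libraries qualified. The peptide's own gene was left out of its comparison. The test was edgeR 4.0.16 (quasi-likelihood, filterByExpr, TMM) in R 4.3.3 with Benjamini-Hochberg adjustment over all genes and a threshold of 0.05. With SE is meant the log2 fold change divided by the root of F. Shares of cells were compared with exact permutation tests over libraries (scipy 1.17.1, Python 3.11.15). Each comparison was tested on simulated data, where 104 of 200 changed genes were recovered for E60 against E70. The labels do not say that replicate libraries came from separate litters or days, so p-values measure the spread between these libraries, which may be technical. Alternatives were DESeq2 1.42.0, no filter on low counts, other UMI thresholds and gates, thinning to 2000 UMIs, a replicate block and each library left out, and the comparisons with all other cells, within the astroglial gate, on cells of the GABAergic gate whatever other gate they passed, and without E60_1 and E60_2 were added after seeing the data.

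The text names the members, genes of the fixed lists, and for each comparison up to 5 called genes in each direction with the largest change among those that moved the same way in every library. It names up to 5 genes most like each member, those without a symbol left out. Some genes that meet these rules are not reported here. Sequences and positions are from RefSeq for Sscrofa11.1.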

Additional observations from a re-analysis of the deposited data

How the results depend on the processing

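Of 192 alternatives for the main results, 127 were counted as the same, 4 crossed the threshold upward, 50 moved a value and 11 turned a direction, and the cause was not tested. For tested values, the same meant the same direction and side of the threshold. For counts of called genes it meant a count within a set factor of the main one. For shares without E60_1 and E60_2, which had no test, it meant the same direction and a shift below the larger SD of the stages. Over 168 named gene results, 268 of 1366 alternative fits changed the call and 14 the direction.

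For E60 against E70, DESeq2 called 2833 genes, and leaving out 1 library gave 0 to 5902. With the replicate block 0 genes were called (2928 at an unadjusted p under 0.05). The deviations of same-numbered libraries from their group means correlated at -0.171, 0.0322 and -0.126. E60_1 and E60_2 differed from E60_3 in genes of the tissue, so these values cannot decide whether the numbers pair the libraries. Leaving out 1 library gave log2 changes of -5.23 to -2.04 for SST, -1.40 to -0.17 for NPY, 0.33 to 3.96 for CORT, -4.21 to -1.36 for CCK and -0.14 to 1.37 for VIP, where the values without E60_1, E60_2 and E70_3 were -0.07, -0.14 and -0.06. DESeq2 gave CCK -2.77 (adjusted p = 0.0193). Without E60_1 and E60_2 CORT was at -0.58 and VIP at -0.81.

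Shares, in percentage points, moved when 1 library was left out from -2.22 to -1.19 for SST, -1.93 to 0.785 for NPY, 0.117 to 0.877 for CORT, -1.18 to -0.242 for CCK and -0.0714 to 0.0214 for VIP. Without E60_1 and E60_2 they were -0.333 for SST, -3.65 for NPY, -0.629 for CORT and -0.164 for VIP. Thinned, CORT was at -0.0315. VIP was at 0.183 with at least 1 UMI and 0.028 with at least 2.

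Against other neurons the count for SST cells was 39 by DESeq2, 230 without the filter, 0 at 5 UMIs or more, 5 with the GABAergic gate on both sides, 248 without E60_1 and E60_2 and 0 to 48 with 1 library left out. For NPY cells it was 1065 at 5 UMIs or more, 1 and 2 with the GABAergic gate alone or with others, and 1166 to 2536 with 1 library left out. For CCK cells it was 260 by DESeq2, 394 without the filter, 20 at 5 UMIs or more and 10 to 313 with 1 library left out. The GABAergic gate alone on both sides left fewer than 3 libraries for SST and CCK. Within the astroglial gate the count was 56 by DESeq2, 123 without the filter and 0 to 362 for NPY, and 8, 143 and 5 to 119 for CCK. Against all other cells it was 1891 to 3108 for SST (1858 without E60_1 and E60_2), 275 to 1903 for NPY (1122 by DESeq2) and 818 to 1302 for CCK (281 without E60_1 and E60_2).

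In SST cells DESeq2 gave FEZF2 0.072, and with the GABAergic gate on both sides ZFP36L1 was at -0.33, MFGE8 at -0.087, SELENOP at -0.66, DAB2 at -0.46 and CCK at -0.44 (CCK from -0.034 without E60_2 to 1.20 without E60_1). In NPY cells with that gate AQP4 was at -0.12, and with that gate alone NEUROD6 was at 0.0055 and CPE at -0.22. In CCK cells SST was at -0.42 to 1.08 with 1 library left out and -0.052 without E60_1 and E60_2, and NPY at -0.52 to 0.83 with 1 library left out. Depth limits the rare peptides, since CORT and VIP gave 656 and 720 UMIs in all.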
